A study of Mus musculus and Homo sapiens with 8 samples.

Results

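The genes described here encode carriers that exchange or cotransport ions and small charged molecules. They were taken as every gene of the deposited expression table whose symbol starts with Slc4a, Slc8a, Slc9a, Slc12a, Slc20a, Slc22a, Slc26a or Slc34a followed by a digit. The rule found 36 of the 13359 genes in the table: 8 Slc9, 8 Slc22, 6 Slc4, 6 Slc12, 4 Slc26, 2 Slc20 and 2 Slc34 genes, and 0 Slc8 genes. Of the 36, 32 are protein-coding carriers. Slc9a3r1 and Slc9a3r2 encode scaffold proteins that bind a carrier, Slc4a1ap encodes an adaptor protein, and Slc22a13b-ps is a transcribed pseudogene.

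RNA-seq was done on small intestinal crypts of untreated C57BL/6 mice aged 2 months. There were 2 libraries of genotype APCmin+, called controls here, and 2 of genotype APCmin+; Zmynd8IEC-/-, called the libraries (or pools) labelled knockout. All mice carried the Apc Min allele, a truncating mutation of a Wnt pathway regulator that leads to intestinal adenomas, so none of the groups is wild type for Apc. IEC stands for intestinal epithelial cell, and the sources used here do not name what drove the deletion. Each library pooled RNA of 3 mice in equal mass, so 2 pools a group measure the spread between pools and not between single mice. ZMYND8 binds modified histones in chromatin, and the comparison asks how these genes differed when it was labelled as deleted.

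In the intestine, sodium and chloride are absorbed across the brush border by sodium/proton exchangers of the Slc9 family working beside chloride/bicarbonate exchangers of the Slc26 family. Chloride secretion, a task of crypt cells, depends on basolateral uptake by the sodium-potassium-chloride cotransporter Slc12a2 and on exit through the channel Cftr. Bicarbonate carriers of the Slc4 family set cell pH and supply bicarbonate for secretion, Slc34 and Slc20 carriers bring phosphate into the cell, and Slc22 carriers move organic cations, organic anions and carnitine.

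The libraries held 43457253 to 47500049 reads on the listed genes. Expression is given in FPKM, which divides reads by gene length and library size. Zmynd8 itself had 6.94 and 4.73 FPKM in the Apc Min pools, compared with 7.30 and 7.65 FPKM in those labelled knockout (log2 fold change 0.33, 95% interval -0.13 to 0.79, limma adjusted p = 0.29). The RNA level of the targeted gene was thus not lower there. Whether the counted reads lie outside the deleted part is not known, so directions below hold as far as the labels do. All 6 epithelial markers (Epcam, Cdh1 and keratins among them) were listed, with a summed level of 6086 and 6981 FPKM in the controls and 5938 and 5825 FPKM in the other group. All 7 immune markers and all 7 markers of stroma and muscle were listed as well, with sums of 386 to 549 FPKM and of 238 to 377 FPKM, so the crypt libraries held RNA of other cells.

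Across the whole set, limma called 0 of the 34 genes tested at an adjusted p under 0.05, against 0.726% of all 12948 genes tested (94 genes). Before adjustment, 9 of the 34 had p under 0.05 (against 26.6% of all genes tested), 5 of them higher (against 7.49%) and 4 lower (against 19.1%). Slc4a5 and Slc22a13b-ps, among the 5 higher, reached 1 FPKM only in the libraries labelled knockout. They were thus tested only through the group where they were higher. Limma-voom on recovered reads also called 0 of the 34, against 1.16% of all genes tested. Leaving out control replicate 2 gave 1 call, Slc9a3r1, where 6.18% of all genes tested were called. Slc4a11 and Slc34a3 did not reach 1 FPKM in 2 libraries and were not tested.

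Both libraries labelled knockout lay above both controls for 9 of the 34 genes (26.5%, against 14.9% of all genes tested) and below both for 16 (47.1%, against 48.5%). Most genes of the table were slightly lower in the libraries labelled knockout, with a median log2 fold change of -0.15 on the log2(FPKM + 1) scale (fold changes of low genes are understated on it). After median-ratio scaling, which centres the libraries on each other, 12 of the 34 genes lay above (35.3%, against 28.2% of all genes) and 10 below (29.4%, against 28.0%). The median log2 fold change of the 34 genes was -0.08 as deposited and 0.08 after that scaling. Slc4a5 and Slc22a13b-ps are counted above both controls under either scaling, though tested only through the libraries labelled knockout. Slc22a17 is counted below both under either scaling, though tested only through the controls. These counts are therefore no support for an excess in either direction.

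**Figure D1:**
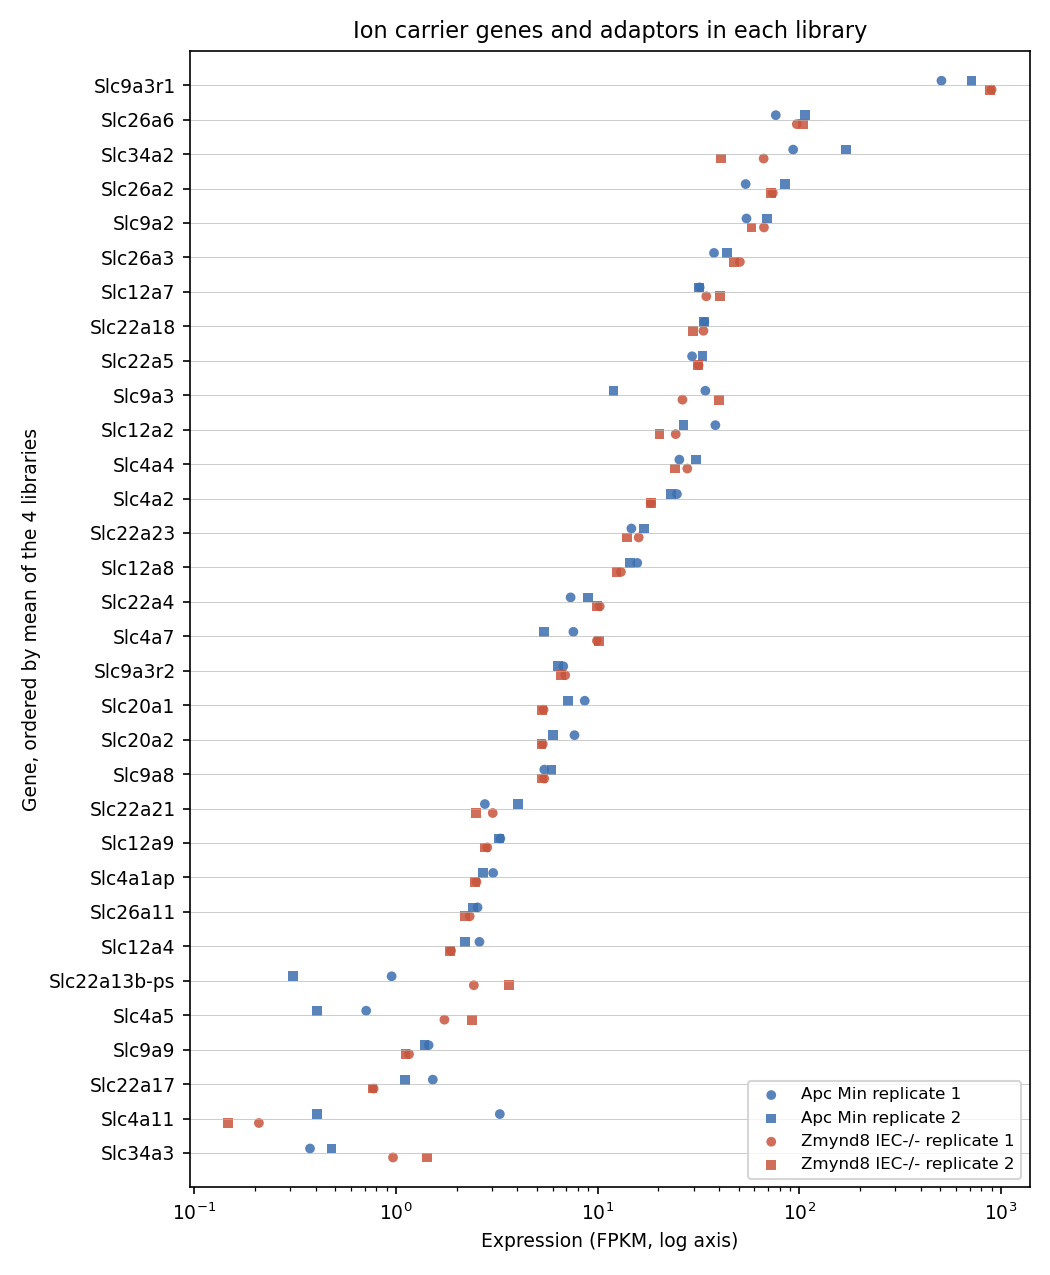
Expression of 32 of the genes in each library, in FPKM on a log axis, with genes ordered by the mean of the 4 libraries. Blue points are Apc Min and red points are the libraries labelled knockout, with circles for replicate 1 and squares for replicate 2. Slc9a3r1 stands highest. Groups that do not overlap, as in Slc34a2 and Slc4a7, are common in the set and among all genes tested (14.9% higher, 48.5% lower).

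Among the sodium/proton exchangers, Slc9a2 was the most abundant. This brush border exchanger had 54.7 and 69.1 FPKM in the Apc Min pools, compared with 66.9 and 58.0 FPKM in those labelled knockout. The groups overlapped fully, and its log2 fold change was 0.02 (95% interval -0.37 to 0.41, limma adjusted p = 0.95). Slc9a3, which encodes NHE3, the main route of sodium absorption in the small intestine, measured 34.3 and 11.98 FPKM in the control pools and 26.4 and 40.1 FPKM in the knockout-labelled pools. Control replicate 2 was the low library, with 3390 reads against 8882 in control replicate 1. The log2 fold change of 0.65 had an interval from -1.18 to 2.48 (adjusted p = 0.53), and without control replicate 2 it was -0.07. Slc9a3 overlaps the predicted gene Gm41003 on the same strand, which makes its values uncertain.

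Of the exchangers of inner membranes, the endosomal Slc9a9 gave -0.18 and Slc9a8 gave -0.07. For both genes both libraries labelled knockout were below both controls as deposited. After median-ratio scaling Slc9a8 became 0.08, while Slc9a9 was still lower in every pairing of libraries.

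Slc9a3r1 was by far the most abundant gene of the set. It encodes NHERF1, a scaffold with PDZ domains that ties NHE3, CFTR and other membrane proteins to ezrin and the brush border. It had 507 and 715 FPKM in the Apc Min pools, compared with 899 and 884 FPKM in those labelled knockout. Both libraries labelled knockout were near each other and above both controls, which differed more. This gave a log2 fold change of 0.57 (SE 0.19, 95% interval 0.06 to 1.07, limma adjusted p = 0.16). Its q-value in the authors' deposited table was 8.04e-12. Of the 36 genes, 2 had such a q-value under 0.05 (against 2.13% of all genes), 1 higher (against 1.26%) and 1 lower (against 0.876%). Without control replicate 2 the log2 fold change was 0.81 (adjusted p = 0.041), and without control replicate 1 it was 0.32 (adjusted p = 0.21).

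The sequence before the start of Slc9a3r1 is shown because the gene is 1 of the 2 in the set with a deposited q-value under 0.05. It covers chr11:115163091-115163340 (GRCm38.p6, plus strand, from RefSeq), and the capitals mark GC boxes and CCAAT boxes, general promoter elements, read on either strand.
Slc9a3r1: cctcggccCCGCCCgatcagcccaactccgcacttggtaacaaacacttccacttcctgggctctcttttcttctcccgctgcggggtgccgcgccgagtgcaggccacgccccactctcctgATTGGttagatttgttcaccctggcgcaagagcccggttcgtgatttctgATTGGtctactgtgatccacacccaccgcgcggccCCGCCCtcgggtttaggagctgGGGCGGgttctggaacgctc
These 250 bases held the GC box letters GGGCGG at 3 places and the letters CCAAT at 2, with no overlap between them. Of all 32851 promoter windows of 250 bases in the RefSeq table, 32.7% held GGGCGG and 33.8% held CCAAT.

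Slc9a3r2, which encodes the related scaffold NHERF2, measured 6.76 and 6.37 FPKM in the control pools and 6.91 and 6.61 FPKM in the knockout-labelled pools. The groups overlapped, with a log2 fold change of 0.04 (95% interval -0.23 to 0.30).

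Among the anion exchangers, Slc26a6 was the most abundant. It encodes PAT1, a brush border exchanger of chloride, bicarbonate and oxalate, and was found at 76.5 and 107 FPKM in controls against 97.3 and 105 FPKM in knockout-labelled pools. The libraries labelled knockout lay between the controls (log2 fold change 0.16, 95% interval -0.31 to 0.62). Slc26a3, the chloride/bicarbonate exchanger also known as DRA, had 37.8 and 43.7 FPKM in the Apc Min pools, compared with 50.8 and 47.5 FPKM in those labelled knockout. Its groups did not overlap, with a log2 fold change of 0.27 (SE 0.11, 95% interval -0.03 to 0.56, adjusted p = 0.21).

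The sulfate carrier gene Slc26a2 measured 54.3 and 84.9 FPKM in the control pools and 73.9 and 72.2 FPKM in the knockout-labelled pools. Control replicate 1 was low and control replicate 2 high, with the other group between them. Slc26a11, a low sulfate carrier gene, ran from 2.21 to 2.54 FPKM over all 4 libraries, with groups apart on the lower side as deposited (-0.09) and on the higher side after median-ratio scaling (0.03). The 4 tested brush border genes for sodium and chloride absorption (Slc9a2, Slc9a3, Slc26a3 and Slc26a6) all had positive log2 fold changes as deposited. The same held under both other scalings (median-ratio and quantile). Of all 12948 genes tested, 3669 were positive as deposited, 6354 under the median-ratio scaling and 5977 under the quantile scaling. The 4 genes had a median of 0.21 as deposited, against -0.15 for all genes tested. However, only Slc26a3 had groups apart, on the higher side (against 14.9% of all genes tested). The values of Slc9a2 and Slc26a6 turned negative without control replicate 1 (-0.15 and -0.08), as did Slc9a3 without control replicate 2.

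The bicarbonate carriers of the Slc4 family went in different directions. Slc4a4, which encodes the basolateral sodium bicarbonate cotransporter NBCe1, was the most abundant with 25.4 and 30.9 FPKM in the control pools and 27.9 and 24.2 FPKM in the knockout-labelled pools, and its groups overlapped (log2 fold change -0.11, 95% interval -0.46 to 0.24). Slc4a2, which encodes the chloride/bicarbonate exchanger AE2, stood at 24.7 and 23.1 FPKM in control pools and at 18.3 FPKM in both libraries labelled knockout. Both were below both controls, with a log2 fold change of -0.37 (SE 0.09, 95% interval -0.60 to -0.13, adjusted p = 0.11), or -0.20 after median-ratio scaling.

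Slc4a7 and Slc4a5 had higher values in both libraries labelled knockout. Slc4a7, which encodes the electroneutral sodium bicarbonate cotransporter NBCn1, was found at 7.59 and 5.43 FPKM in controls against 9.93 and 10.2 FPKM in knockout-labelled pools (log2 fold change 0.57, SE 0.16, 95% interval 0.15 to 0.99, adjusted p = 0.13). Slc4a5, which encodes the electrogenic cotransporter NBCe2, had 0.713 and 0.408 FPKM in the Apc Min pools, compared with 1.74 and 2.38 FPKM in those labelled knockout.

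Behind these Slc4a5 values were 197 and 123 reads in control pools, compared with 501 and 707 in those labelled knockout. The ratio of the group means was 3.68, and the log2 fold change 0.97 (SE 0.19, 95% interval 0.50 to 1.45, adjusted p = 0.090), the smallest adjusted p of the 34 genes. Slc4a5 reached 1 FPKM only in the libraries labelled knockout, so it was tested only through the group where it was higher. Its rank is therefore no support for a difference. Across all alternatives the adjusted p of Slc4a5 ran from 0.065 to 0.49. Slc4a11 was set by 1 library, with 3.28 FPKM in control replicate 1 against 0.406 in control replicate 2 and 0.209 and 0.148 FPKM in the pools labelled knockout. The adaptor gene Slc4a1ap gave -0.15 (95% interval -0.49 to 0.19).

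**Figure D2:**
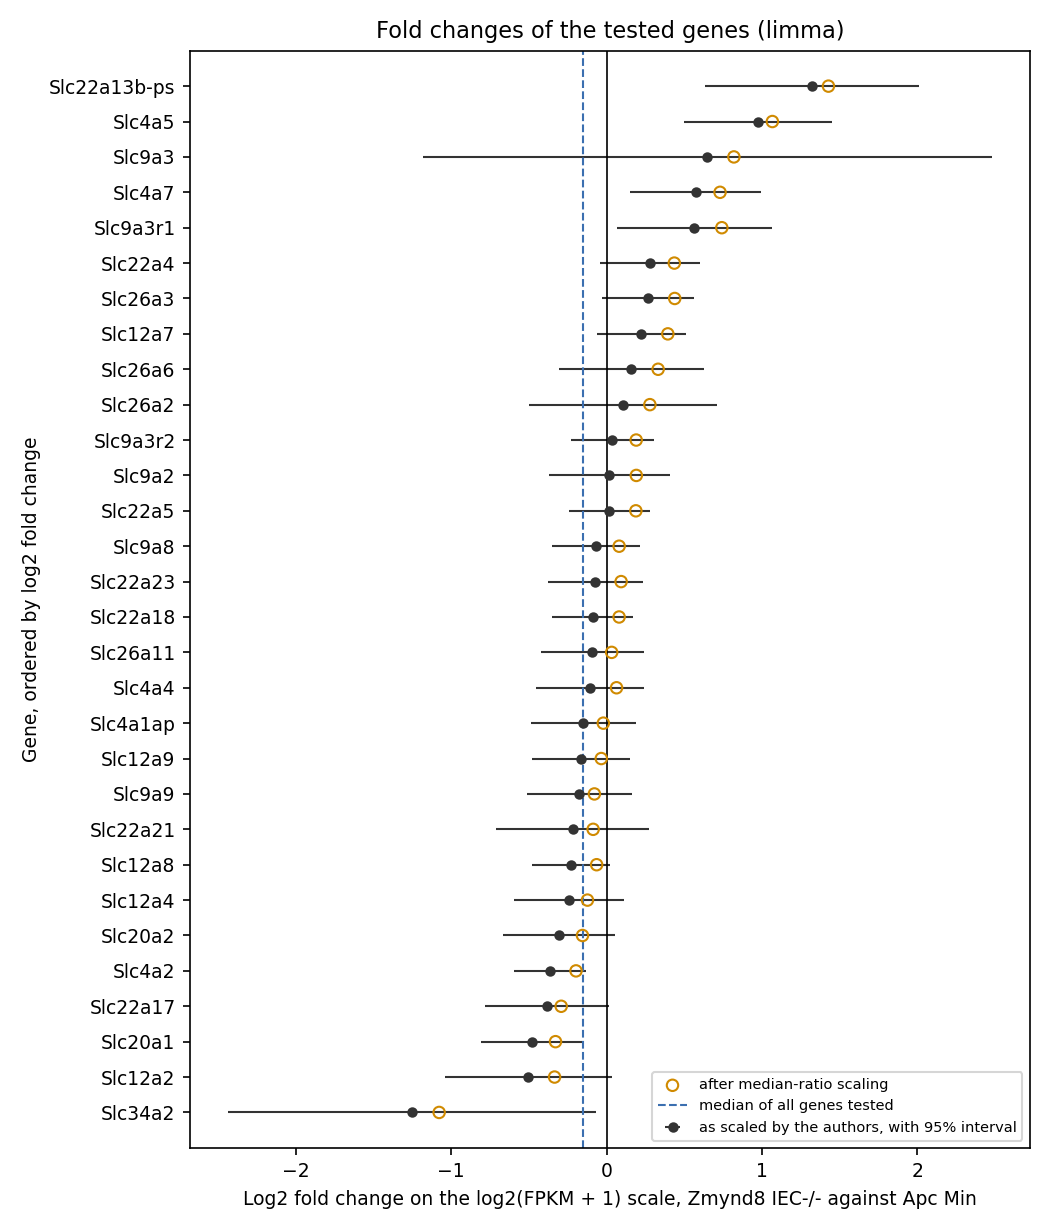
Log2 fold changes of 30 of the tested genes, libraries labelled knockout against Apc Min, on the log2(FPKM + 1) scale. Black points and bars are limma estimates with 95% intervals, open circles are the estimates after median-ratio scaling, and the dashed line at -0.15 is the median of all genes tested. The widest interval, that of Slc9a3, runs from -1.18 to 2.48, and Slc34a2 is lowest at -1.25.

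The 5 cation-chloride cotransporter genes described here had groups that did not overlap, 1 higher (against 14.9% of all genes tested) and 4 lower (against 48.5%), and none passed the test (smallest adjusted p = 0.20). Slc12a2, which encodes NKCC1, the basolateral chloride loader of secreting crypt cells, measured 38.4 and 26.7 FPKM in the control pools and 24.4 and 20.3 FPKM in the knockout-labelled pools. Control replicate 1 was the high library, and the log2 fold change was -0.51 (SE 0.20, 95% interval -1.04 to 0.03, adjusted p = 0.20). It was -0.25 without control replicate 1 and -0.76 without control replicate 2.

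The potassium-chloride cotransporters described here, which carry both ions out of the cell, had log2 fold changes of opposite sign with intervals that include 0. A difference between them was not tested. Slc12a7, which encodes KCC4, was found at 32.1 and 31.7 FPKM in controls against 34.6 and 40.4 FPKM in knockout-labelled pools (log2 fold change 0.22, 95% interval -0.06 to 0.51). Slc12a4, which encodes KCC1, gave -0.24 (95% interval -0.60 to 0.11) at a level of 1.85 to 2.60 FPKM, or -0.12 after median-ratio scaling.

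Slc12a8 and Slc12a9 gave -0.23 and -0.17. After median-ratio scaling Slc12a7 was at 0.39, and the Slc12a9 groups overlapped.

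Phosphate carriers held the gene with the lowest log2 fold change of the 34 tested, Slc34a2. It encodes NaPi-IIb, the brush border sodium phosphate cotransporter, which in mice is most active in the ileum. Slc34a2 measured 93.3 and 170 FPKM in the control pools and 66.6 and 41.1 FPKM in the knockout-labelled pools. The groups did not overlap, and the pools differed from each other within both groups. This gave a log2 fold change of -1.25 (SE 0.41, 95% interval -2.43 to -0.07, limma adjusted p = 0.18), and the ratio of the group means was 0.409. Its q-value in the authors' deposited table was 2.99e-06. With 1 library left out the log2 fold change ran from -1.68 to -0.82.

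Markers of the distal small intestine moved with Slc34a2 in part. All 6 distal markers (Fabp6, Slc10a2 and Fgf15 among them) were listed, with a sum of 2119 and 8864 FPKM in the controls and of 3043 and 546 FPKM in the pools labelled knockout. Fabp6 alone had 1459 and 7606 FPKM in the controls and 2250 and 134 FPKM in the pools labelled knockout. Of the 6 distal markers 1 lay below both controls (against 48.5% of all genes tested) and 0 above both (against 14.9%). The highest and the lowest library were the same for the distal sum and for Slc34a2, but the distal sum of control replicate 1 was below that of replicate 1 of the libraries labelled knockout. Of the 8 proximal markers (Fabp1, Lct and Gata4 among them) 7 were listed, with a sum of 307 and 171 FPKM in the controls and of 1121 and 1896 FPKM in the pools labelled knockout. Fabp1 alone had 609 and 1107 FPKM in the latter. Of these markers 5 lay above both controls in both pools labelled knockout (against 14.9% of all genes tested). Onecut2 lay below both controls (against 48.5%), and Cybrd1 overlapped. Onecut2 had 4.18 FPKM in control replicate 1 but 0.246 in control replicate 2, against 0.201 and 0.227 FPKM in the pools labelled knockout. Its place below control replicate 2 thus rests on values well under 1 FPKM. Fabp1 and Lct are also among the enterocyte markers below. The part of these regional markers in the result was not tested.

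**Figure D3:**
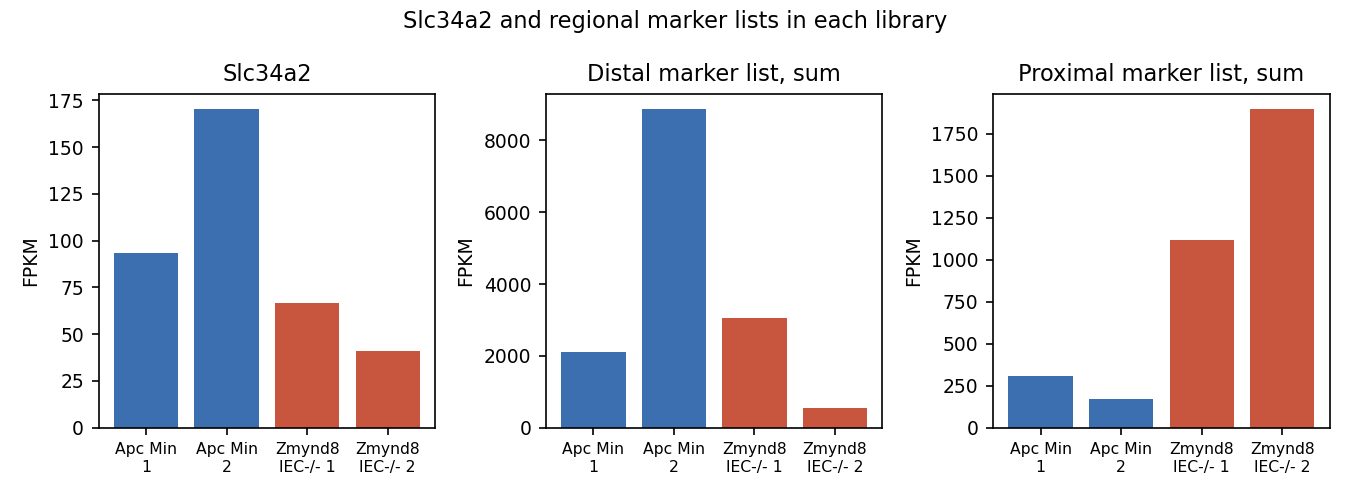
Slc34a2 and the summed levels of 6 distal and 7 proximal marker genes in each library, in FPKM, 1 bar per library and no error bars. Control replicate 2 is highest for Slc34a2 (170 FPKM) and for the distal sum (8864 FPKM), and replicate 2 of the libraries labelled knockout is lowest for both.

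The bases before both the RefSeq start and the deposited start of Slc34a2 are shown because the gene is the other member with a deposited q-value under 0.05. They cover chr5:53049103-53049202 (GRCm38.p6, plus strand, from RefSeq), with no capitals because none of the 6 motifs searched was found in them.
Slc34a2: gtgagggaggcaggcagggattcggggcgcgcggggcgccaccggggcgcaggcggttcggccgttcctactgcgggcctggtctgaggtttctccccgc
The motifs were AGATAA for GATA factors, TTTATNG for CDX2, GGAATG for TEAD (the DNA-binding partners of YAP), TCACNCCAC for SREBP, GGGCGG and CCAAT, on both strands. These 100 bases are 75.0% G and C. RefSeq promoter entries matched 24 of the 36 genes, with 31 entries, and the window searched in each was the 250 bases before the RefSeq start. TEAD letters were found for 4 genes (Slc12a4, Slc12a8, Slc20a1 and Slc34a2, the last in the part of its window after the deposited start) and in 12.6% of all windows, GATA letters for 4 genes and in 9.99%, and the CDX2 and SREBP letters for 1 gene each (Slc12a8 and Slc9a3r2) and in 9.81% and 1.05%. A match describes letters only.

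Slc34a3, the kidney-type sodium phosphate cotransporter gene, had 0.376 and 0.480 FPKM in the control pools and 0.968 and 1.43 FPKM in the knockout-labelled pools, on 38 to 155 reads. Each gene of the table averaged 1 FPKM or more in some group, and Slc34a3 did so only in the libraries labelled knockout. It was thus listed only through the group where it was higher. Its direction is therefore no support for a contrast with Slc34a2. The housekeeping phosphate carrier genes Slc20a1 and Slc20a2 had lower values. Slc20a1 was found at 8.64 and 7.14 FPKM in controls against 5.40 and 5.29 FPKM in knockout-labelled pools (log2 fold change -0.48, SE 0.13, 95% interval -0.81 to -0.16, adjusted p = 0.12). Slc20a2 stood at 7.69 and 6.03 FPKM against 5.35 and 5.28 FPKM (-0.31, 95% interval -0.67 to 0.05). Slc20a2 overlaps Smim19 on the opposite strand and another listed gene on the same strand. Any use of strand in counting is not given, so its values are uncertain. The 3 tested phosphate carrier genes were lower in every pairing of libraries, as were 48.5% of all genes tested, and also after median-ratio scaling, as were 28.0% of all genes tested.

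**Figure D4:**
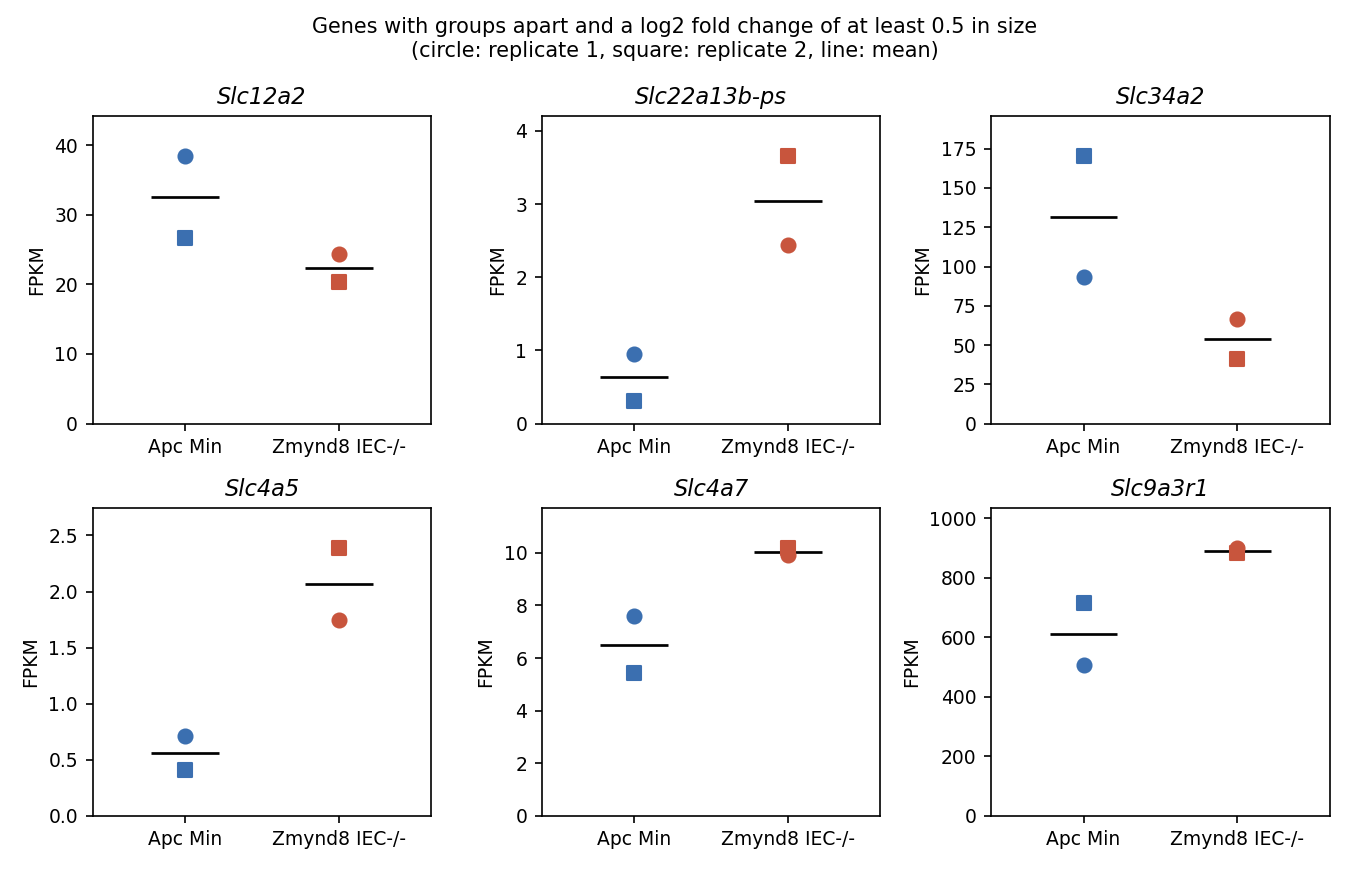
The 6 genes with groups apart, a log2 fold change of 0.5 or more in size, and 2 FPKM or more as the mean of the higher group. Points are libraries (circles replicate 1, squares replicate 2) in FPKM on axes that start at 0, and lines are group means; Slc34a2 and Slc12a2 are lower and the other 4 higher in the libraries labelled knockout.

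The organic ion carriers of the Slc22 family described here did not pass the test (smallest adjusted p = 0.20, for Slc22a17). Slc22a18, an imprinted gene, was the most abundant with 33.8 and 33.6 FPKM in the control pools and 33.5 and 29.8 FPKM in the knockout-labelled pools (log2 fold change -0.09, 95% interval -0.35 to 0.17). Slc22a5, which encodes the carnitine carrier OCTN2, had 29.4 and 33.1 FPKM in the Apc Min pools, compared with 31.7 and 31.5 FPKM in those labelled knockout, inside the range of the controls.

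Slc22a5, Slc22a21 and Slc22a4 are close relatives that follow each other on chromosome 11, with 58.2 kb and 2.30 kb between them, so reads could have been split or shared. Slc22a4, which encodes OCTN1, a carrier of ergothioneine, was found at 7.35 and 9.005 FPKM in controls against 10.3 and 9.91 FPKM in knockout-labelled pools (0.28, 95% interval -0.04 to 0.60). Slc22a21 stood at 2.76 and 4.05 FPKM against 3.02 and 2.50 FPKM (-0.22, 95% interval -0.71 to 0.28). Slc22a4 had groups apart and the other 2 did not, and a difference between these neighbours was not tested.

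Slc22a13b-ps had the largest positive log2 fold change of the 34 tested genes. The pseudogene had 0.953 and 0.310 FPKM in the Apc Min pools, compared with 2.44 and 3.65 FPKM in those labelled knockout, on 62, 22, 165 and 255 reads. The ratio of the group means was 4.82, and the log2 fold change 1.32 (SE 0.26, 95% interval 0.64 to 2.01, adjusted p = 0.094). The pseudogene reached 1 FPKM only in the libraries labelled knockout, so it was tested only through the group where it was higher. RefSeq lists it on chromosome 9 under the name Slc22a13b, with the older symbol as a synonym. Reads of the pseudogene could be shared with related Slc22 genes, so its values are uncertain. Slc22a23 gave -0.07 and Slc22a17 -0.38, the latter at 0.766 to 1.53 FPKM. Slc22a17 reached 1 FPKM only in the controls, so it was likewise tested only through the group where it was higher.

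Markers of several cell types differed between the groups. All 14 enterocyte markers were above both controls in both libraries labelled knockout, with a sum of 14172 and 16204 FPKM in the controls and of 22522 and 26101 FPKM in the other group, where 14.9% of all genes tested lay above both controls. All 7 markers of cycling cells were below both controls (220 and 206 FPKM against 151 and 150 FPKM), as were 5 of 6 stem cell markers (206 and 217 FPKM against 136 and 143 FPKM) and 5 of 6 Paneth cell markers, against 48.5% of all genes tested. All 3 listed tuft cell markers and 5 of 7 goblet cell markers were also below both controls (against 48.5%). Of 6 enteroendocrine markers 1 was above both controls (against 14.9%) and 0 below both. In these bulk libraries, fewer cells of a type and less RNA per cell cannot be told apart. The part of the markers in the carrier values was not tested. Of the 6 colon markers 3 were listed, at sums of 62.3 to 87.6 FPKM, and 0 of 4 kidney markers were listed.

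Genes that work with the carriers were taken from a list of channels, pumps, carbonic anhydrases, scaffolds, kinases and calcium absorption genes. Of 53 genes 45 were listed and 44 tested, and limma called 0, with 9 higher and 5 lower at an unadjusted p under 0.05 (against 7.49% and 19.1% of all genes tested). Limma-voom on recovered reads called 3 of the 44 (Guca2b, Kcnk5 and Sgk1), against 1.16% of all genes tested. The median log2 fold change of the 44 genes was -0.05, against -0.15 for all genes. By q-value in the authors' deposited table, 6 of them passed 0.05 with a higher level (Atp1b1, Ezr, Guca2a, Guca2b and Sgk1 among them) and 2 with a lower one (Fxyd3 and S100g), against 2.13% of all genes.

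The sodium pump drives the sodium-coupled carriers. Its beta subunit gene Atp1b1 had 594 and 685 FPKM in the Apc Min pools, compared with 924 and 906 FPKM in those labelled knockout (log2 fold change 0.52, SE 0.13, adjusted p = 0.12). Its groups were apart under the deposited and the median-ratio scaling. The less abundant beta subunit gene Atp1b3 gave -0.45.

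Several regulators of absorption and secretion were among the partner genes of smallest p. Sgk1, a kinase gene that acts on NHE3 and epithelial channels, was found at 52.1 and 56.3 FPKM in controls against 95.7 and 99.7 FPKM in knockout-labelled pools (0.84, SE 0.10, adjusted p = 0.051). Guca2b, which encodes uroguanylin, a gut peptide that activates the receptor Gucy2c, stood at 423 and 324 FPKM against 878 and 1134 FPKM (1.43, SE 0.20, adjusted p = 0.067). Prkg2, the cGMP-dependent kinase gene of that pathway, stood at 7.93 and 5.19 FPKM against 17.3 and 20.9 FPKM (1.43, SE 0.21, adjusted p = 0.074). Pdzk1, which encodes another PDZ scaffold of brush border carriers, stood at 51.3 and 57.1 FPKM against 80.3 and 81.2 FPKM (0.57, SE 0.10, adjusted p = 0.082). In all 4 genes both libraries labelled knockout lay above both controls (against 14.9% of all genes tested), but the 4 were picked among those of smallest p. Of all 18 scaffold, kinase and regulator genes in that part of the partner list, 9 lay above both controls and 5 below both (against 48.5%).

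Potassium channel genes went both ways. Kcnk5 had 19.99 and 21.9 FPKM in the Apc Min pools, compared with 35.3 and 38.2 FPKM in those labelled knockout (0.78, SE 0.10, adjusted p = 0.057). Kcnn4 and Kcne3, whose products serve basolateral potassium exit in secreting cells, gave -0.36 (adjusted p = 0.12) and -0.80 (adjusted p = 0.13), and the kinase gene Wnk2 gave -0.47. Cftr, the chloride channel gene, measured 18.8 and 14.5 FPKM in the control pools and 14.6 and 13.7 FPKM in the knockout-labelled pools, with overlapping groups. The carbonic anhydrase gene Car13 stood at 35.4 and 35.5 FPKM against 54.3 and 52.4 FPKM (0.58, adjusted p = 0.073).

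**Figure D5:**
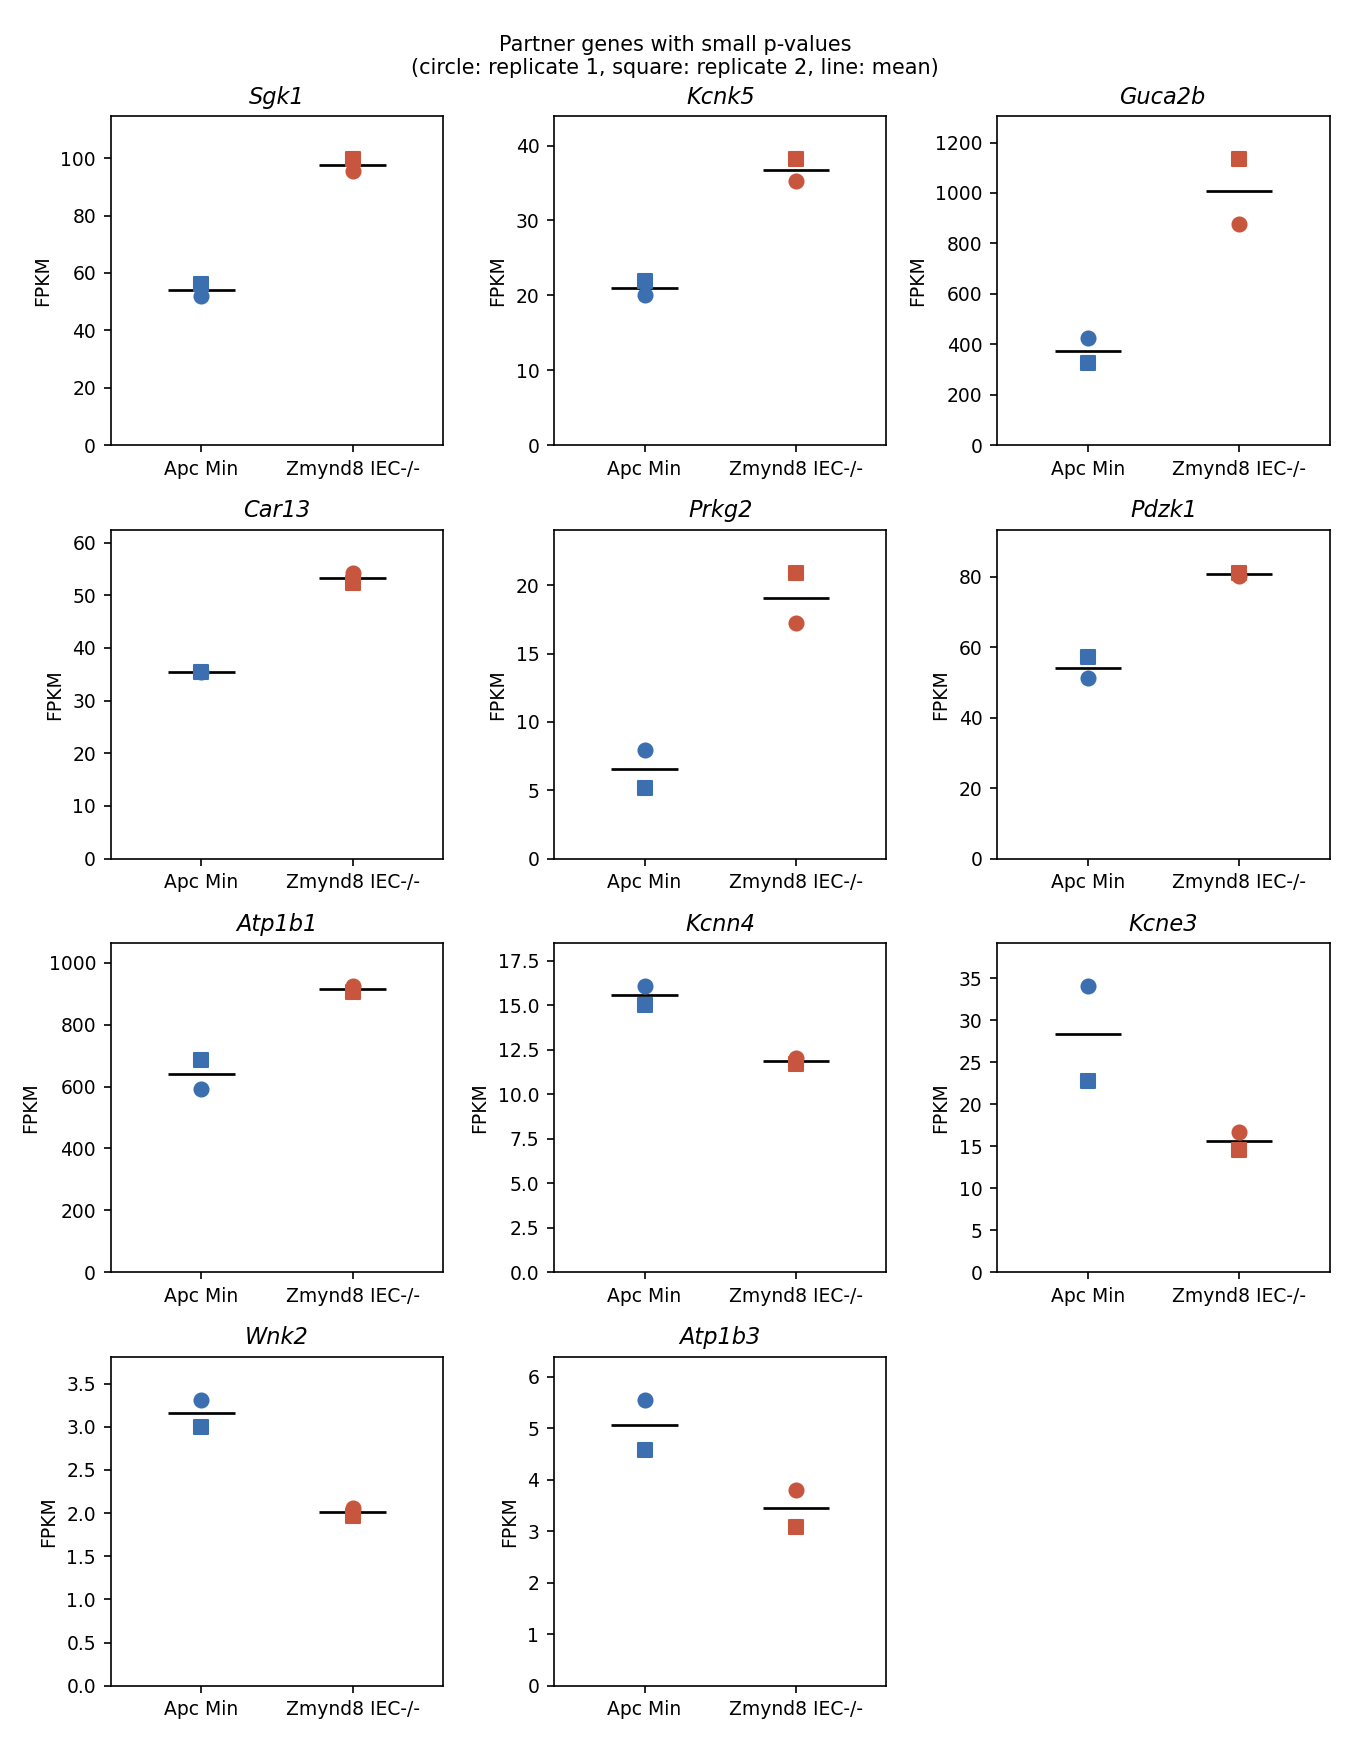
Partner genes with small p-values, 11 in all, in FPKM on axes that start at 0, with points for libraries (circles replicate 1, squares replicate 2) and lines for group means. Sgk1, Kcnk5, Guca2b, Car13, Prkg2, Pdzk1 and Atp1b1 are higher, and Kcnn4, Kcne3, Wnk2 and Atp1b3 lower, in both pools labelled knockout than in both controls.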

How the data were processed

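RNA-seq of 4 libraries was used, 2 per genotype, each a pool of 3 mice; 4 ChIP-seq libraries were not analysed here. The builds mm10 and hg38 and the tools HISAT2, SICER and BWA stand, without roles, in the submitters' processing notes. For the counter, annotation and strand setting nothing is given in the sources used here. The authors deposited 1 value per gene and library, read as FPKM from the values (the header names no unit), with their own log2 fold change, p-value and q-value, whose test is not given. Exact repeats (168 of 13527 entries) were dropped. Each of the 13359 genes averaged 1 FPKM or more in some group, and lower genes were not analysed here.

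Reads behind the values were recovered as the smallest whole numbers within 0.002 for 13359 genes (100.0%), from library totals of 44718091 to 48778712 reads, so read numbers are lower bounds.

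Limma 3.58.1 (R 4.3.3) was fitted to log2(FPKM + 1) of the 12948 genes that reached 1 FPKM in 2 or more libraries, with trend and robust moderation, genotype as the only term and 2 residual degrees of freedom; p-values were Benjamini-Hochberg adjusted over all genes tested, with a threshold of 0.05 and 95% intervals. The test was also run on simulated data, which had no shift between the groups apart from added increases and the same spread in every library. That run therefore says nothing on the calls made here. P-values reflect only how far these pools lie apart. Values in every library are given for genes with an absolute log2 fold change of at least 0.5, groups apart and a mean of at least 2 FPKM, for the most abundant gene of each family, and for other members chosen by role after their values were seen. Partners named are 11 of the 12 of smallest p and a few others, chosen after their values were seen. Members and lists were chosen with earlier results of these data known. Alternatives changed the pseudocount, filter, scaling, moderation, block, tool and libraries. Some genes are counted in the set but not reported here by name.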

Additional observations from a re-analysis of the deposited data

How the results depend on the processing

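Of the 30 tested genes reported by name, 17 kept 1 direction in all 13 alternatives that tested them and 13 reversed in 1 or more. Alternatives that changed only the filter, the moderation or the block left each log2 fold change as it was. They could not reverse a direction, so a kept direction in them is no support. Median-ratio scaling put Slc22a18 at 0.0801, Slc22a23 at 0.0929, Slc26a11 at 0.0322, Slc4a4 at 0.0635 and Slc9a8 at 0.0803. Quantile normalization put Slc12a9 at 0.0092, Slc22a23 at 0.0628, Slc26a11 at 0.0666, Slc4a1ap at 0.0177 and Slc9a8 at 0.099. With 1 library left out, log2 fold changes ran from -0.167 to 0.0227 for Slc22a23, from -0.0651 to 0.0997 for Slc22a5, from -0.213 to 0.423 for Slc26a2, from -0.0813 to 0.395 for Slc26a6, from -0.241 to 0.0286 for Slc4a4, from -0.148 to 0.183 for Slc9a2, from -0.0719 to 1.37 for Slc9a3 and from -0.00018 to 0.0740 for Slc9a3r2.

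The median log2 fold change of the set, -0.08 as reported, was 0.0173 with the filter at 5 FPKM (25 genes tested), 0.0802 with median-ratio scaling and 0.0546 with quantile normalization. The number of genes called was 94, and 2 with the filter at 5 FPKM, 1 with no filter, 11 without trend and robust moderation, 150 with voom and 0, in the set too, with the replicate block; with 1 library left out it ran from 0 (without either library labelled knockout) over 83 (without control replicate 1) to 800 (without control replicate 2), and the calls in the set from 0 to 1. The labels share replicate numbers only, and the numbers were not taken to pair the pools: the correlation of deviations was 0.0452 over all genes tested and -0.68 over the 34 genes of the set. The cause of these shifts was not tested. With 2 pools a group, an adjusted p over the threshold does not show that a gene was unchanged.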

Other observations

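Control replicate 1 was the highest library for several ion-handling genes, picked after their values were seen. This was not particular to ion handling: it was also the highest for genes of other kinds, such as Lgr5 and Col1a1. For other carriers, such as Slc26a2, it was the lowest. Slc4a11 had 496 reads in control replicate 1 (3.28 FPKM) against 67, 33 and 24 in control replicate 2 and the libraries labelled knockout. The carbonic anhydrase gene Car3 stood at 13.2 FPKM in control replicate 1, 0.320 in control replicate 2 and 4.10 and 1.08 FPKM in the libraries labelled knockout. Car1 stood at 3.63, 0.112, 0.0294 and 0 FPKM in the same order. Fxyd3, which encodes a regulator of the sodium pump, stood at 96.8, 20.7, 19.96 and 14.9 FPKM, and S100g, the vitamin D-dependent calcium-binding protein gene of calcium absorption, at 43.1, 12.5, 4.65 and 3.21 FPKM. The chloride channel gene Ano1 stood at 9.86, 3.29, 6.39 and 4.95 FPKM.

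The controls differed more from each other than the libraries labelled knockout did. The median absolute log2 difference between replicates was 0.20 in the controls and 0.06 in the other group over the 34 tested carriers and adaptors, and 0.17 and 0.12 over all genes tested. Slc9a3 (1.44), Slc34a2 (0.86) and Slc26a2 (0.64) had the widest differences between the controls.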
